A study of Saccharomyces cerevisiae with 30 samples.

Results

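The response described here is that of the psocs strain of budding yeast in the first 15 min after UV, and it was chosen by strain and time alone. It rests on 6 of the 30 arrays of the series, 3 of untreated psocs cells and 3 of psocs cells 15 min after UV, each measuring RNA of 1 sample. In all, 4242 of the 5656 genes with a probe set were bright enough to be tested. The psocs cells were of the background BY4742, of mating type alpha, and kept an intact *RAD23* gene. They carried a *HIS3* plasmid (pRS313-socs in the labels) whose *RAD7* gene has point mutations in the SOCS box. The chromosomal *RAD7* genotype of the host of this plasmid is not given in the sources used here. The matching strain, pRAD7, carried wild-type *RAD7* on the same plasmid and was sampled with 3 arrays at each time. Both strains were grown at 30°C in synthetic medium lacking histidine until late log phase, and the irradiated cells received 100 J/m2 of UV at 254 nm. The labels number the replicates and call them biological, without saying whether they were separate cultures, so the spread behind each p-value is that between these samples and may be technical.

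Rad7 acts with Rad16 in global genome nucleotide excision repair, which removes UV lesions from DNA that is not being transcribed. The SOCS box of Rad7 joins it to the elongin and cullin of an E3 ubiquitin ligase, and that ligase attaches ubiquitin to the damage recognition protein Rad4 after UV. Yeast cells under sudden stress raise chaperones, stores of carbohydrate and antioxidant enzymes, many of them through the transcription factors Msn2, Msn4 and Hsf1, and lower the genes that build ribosomes. DNA damage also sets off a slower programme through the kinases Mec1, Rad53 and Dun1, which lifts the repressor Crt1 (*RFX1*) from genes such as *RNR3* and *HUG1*.

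Signals are given per array in the order of the replicates, on the linear scale of the deposited intensities after each array was centred on a common median. Changes are log2 values ± SE from the limma fit, and the threshold for calling a gene was an adjusted p of 0.05. In words below, rose and fell are used only of called genes. No probe set's signal is compared with that of another gene, since the brightness of a probe depends on its sequence. RNA of a whole culture was measured, so fewer cells of a type and less RNA per cell cannot be told apart.

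The labels were checked on the plasmid and marker genes. *RAD7* had a deposited signal of 43.8, 44.2 and 48.4 in untreated psocs cells and of 31.7, 44.7 and 37.4 at 15 min. In pRAD7 cells it was 526, 924 and 528 without UV and 349, 449 and 449 at 15 min. The *RAD7* signal was thus far lower in psocs than in pRAD7 on every array, and whether it came from the mutant allele was not tested. Effects of the point mutations and of this lower level of *RAD7* RNA cannot be told apart here. *RAD23* was present in psocs at 666 to 966 without UV and at 605 to 992 after it. The 5 alpha mating genes summed to between 24584 and 30433 in untreated psocs cells and to between 25805 and 31447 at 15 min, and the 7 genes of the a mating type summed to between 161 and 277 and to between 213 and 248. The 22 sporulation genes summed to between 983 and 1166 without UV and to between 1169 and 1368 at 15 min, so the irradiated arrays lay above the untreated ones, with 20 of them too dim to test. A technical measure also moved with UV. The ratio of 3′ to 5′ probe sets was 1.11 to 1.19 for *ACT1* without UV and 1.23 to 1.36 at 15 min, and for *SRB4* it was 3.13 to 3.35 against 4.46 to 5.64, while for *SPT15* (2.36 to 3.46 against 2.79 to 3.51) the groups overlapped. Ribosomal RNA probe sets also rose, *RDN37-1* by 2.42, with its other probe sets at 1.18 to 3.44, and *RDN5-1* by 1.88, with its other probe set at 2.07. The part of the 3′ to 5′ ratios, of the ribosomal RNA and of the sporulation genes in the results was not tested.

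The question was which transcripts had changed in the SOCS-box mutant by 15 min. Chaperones and aggregate-sorting factors, enzymes of glycogen and trehalose, sugar kinases and antioxidant enzymes were among the genes that rose, while many genes for ribosome building and the cell cycle and some for RNA polymerases and transcription complexes fell. limma called 911 genes higher (21.5% of those tested) and 522 lower (12.3%). The changes upward were larger: 265 genes rose at least 2-fold (6.25%) and 130 fell at least 2-fold (3.06%), 86 rose and 8 fell at least 4-fold, and 38 rose and 0 fell at least 8-fold. In 1910 genes (45.0%) no untreated array overlapped a UV array, and 1347 of these were called. The median change of all tested genes was 0.09, with quartiles of -0.22 and 0.39, and each list below is read against it. The lists were chosen with earlier results of these data known, so their counts describe the chosen members and test no programme. Where a list's share of called members is close to these shares of all genes, its count is no result about the list. This is so for both counts of the stress transcription factors and of the recombination and other damage repair genes, and for the falls among nucleotide excision repair and Gcn4 genes. It is so as well for the rises among pentose phosphate genes, Ras and protein kinase A genes, and SAGA and NuA4 genes. The falls among hexokinases and hexose transporters, ubiquitin enzymes and translation initiation factors are also near those shares. Rises made up 63.6% of the calls after centring, 50.5% in the values as deposited and 52.8% after quantile normalization, so the balance between rises and falls depends on the scaling, while the list directions given below do not unless stated.

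The highest rise was in *HSP30*, a heat shock protein of the plasma membrane that restrains the proton pump. Its signal was 181, 65.9 and 44.9 without UV and 5961, 4693 and 4738 at 15 min, a change of 5.97 ± 0.64 (adjusted p = 3.28e-07) or 62.9-fold, and the untreated arrays spread more widely than the irradiated ones. *ROQ1*, whose product redirects the ubiquitin ligase Ubr1 to misfolded proteins, stood at 31.1, 41.9 and 8.84 and then at 1342, 1116 and 1255 (5.77 ± 0.40), where the lowest untreated value is the floor set for dim signals. *RTC3* rose from 85.9, 41.2 and 45.6 to 3196, 2491 and 2149.9 (5.56 ± 0.46). In these 3 genes every irradiated array lay far above every untreated one. *SOL4*, a 6-phosphogluconolactonase, rose 43.9-fold to 2936, 2514 and 1775 (5.46 ± 0.41, adjusted p = 1.74e-09), *RGI1*, which acts in respiratory growth, from 103, 27.6 and 37.4 to 2498, 1392 and 1735, and *CYC7*, the minor cytochrome c, from 20.9, 21.3 and 27.7 to 792, 413 and 572. The nicotinamidase gene *PNC1* rose 20.5-fold from 699.7, 256 and 189 to 7356, 6299 and 6332, with its first untreated array above the others and still far under the lowest irradiated one.

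The falls were shallower and also cleanly separated. *AQR1*, a plasma membrane exporter, dropped from 221, 424 and 206 to 30.6, 37.8 and 54.9, a change of -2.75 ± 0.39 (adjusted p = 1.19e-05) or 6.74-fold lower, the largest fall of the tested genes. *HMT1*, which methylates arginines of RNA-binding proteins, fell from 1178, 1625 and 1468 to 187, 300.2 and 407 (-2.31 ± 0.32). Also lower were *PMD1*, a regulator of early meiotic genes (-2.31 ± 0.20), *CAF120* of the Ccr4-Not complex (-1.88 ± 0.21), *BAS1*, a transcription factor of purine and histidine synthesis (-1.88 ± 0.33), *HO*, the endonuclease of mating type switching (-1.82 ± 0.32), and *VTS1*, an RNA-binding repressor of mRNAs (-1.82 ± 0.23). The UV arrays of *HMT1* spread widely, and the highest of them lay well below the lowest untreated array.

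**Figure D1:**
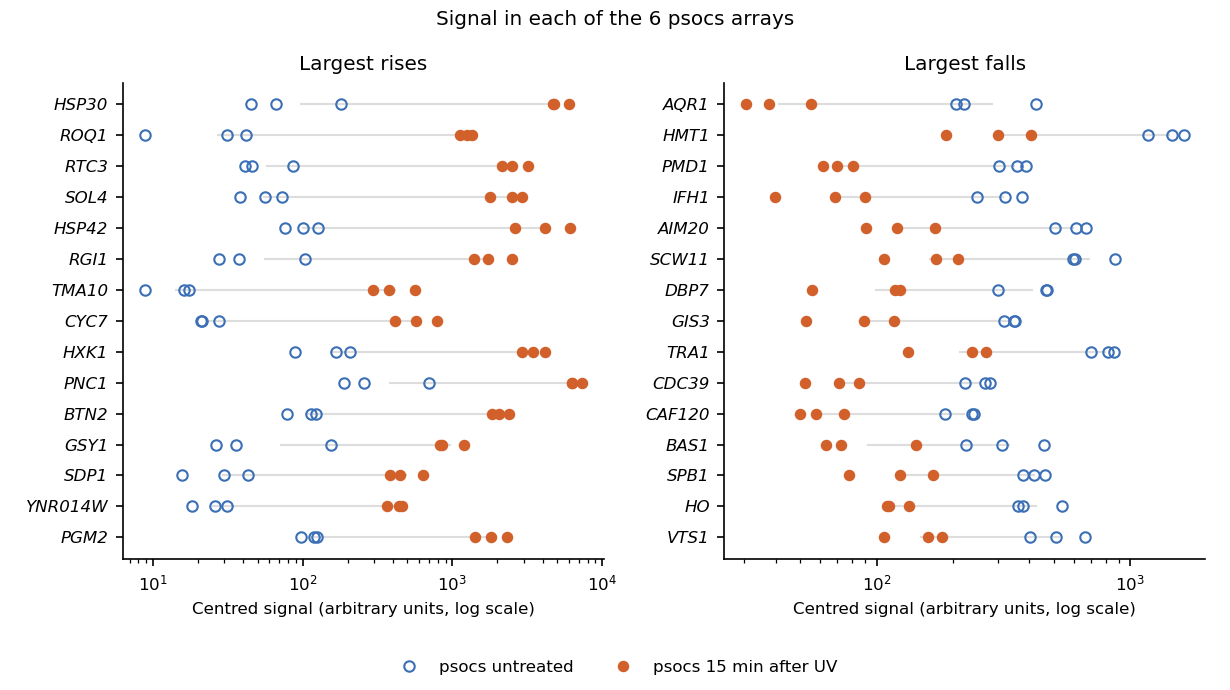
Centred signal (log axis) of the 15 genes with the largest rises and the 15 with the largest falls among called genes of psocs 15 min after UV, with 1 point per array, open for the 3 untreated and filled for the 3 irradiated arrays. The groups do not overlap in any of the 30 genes, and the rises reach 62.9-fold (*HSP30*) while the deepest fall is 6.74-fold (*AQR1*).

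Protein folding genes led the response. All 6 genes of the list of small heat shock proteins and aggregate sorting rose, with a median change of 3.80, and *HSP31* (1.24 ± 0.32) alone of them lost its call in an alternative, without 15 min replicate 1 and in a fit to the compared groups alone. *HSP42*, which gathers misfolded proteins into deposits, went from 75.7, 100.4 and 127 to 6082, 2633 and 4147, 41.0-fold higher (5.36 ± 0.27, adjusted p = 2.30e-12). *BTN2* and *CUR1*, a related pair that sorts misfolded proteins, went from 122, 78.7 and 114 to 2389, 1849 and 2051 (4.34 ± 0.23) and from 57.7, 131 and 106 to 992, 784 and 904 (3.26 ± 0.32). The small heat shock gene *HSP26* rose from 154, 323 and 171 to 2465, 1603 and 1408. In each of these genes every irradiated array lay far above the highest untreated one.

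Of the 24 tested genes for Hsp70, Hsp90, Hsp104 and their helpers, 18 rose and 0 fell, with a median of 1.12. The stress-induced form of Hsp90, *HSP82*, rose 11.7-fold, from 340.1, 324 and 303 to 5048, 3428 and 3126 (3.55 ± 0.26, adjusted p = 9.52e-10), whereas the steadily made form *HSC82* changed by 0.21 ± 0.12 and was not called. The Hsp110 pair showed the same contrast, with *SSE2* rising by 2.05 ± 0.32 and *SSE1*, the form made during growth, changing by 0.22 ± 0.19 without a call. The stress form of Hsp70, *SSA4*, rose by 3.10 ± 0.38. *HSP104*, the disaggregase, rose by 2.85 ± 0.27, its mitochondrial counterpart *HSP78* by 2.41 ± 0.26, the exchange factor *FES1* by 1.93 ± 0.20, the Hsp40 gene *SIS1* by 1.59 ± 0.21 and the Hsp90 helpers *AHA1* by 1.51 ± 0.21 and *CPR6* by 1.45 ± 0.14. Of 17 tested genes for ribosome-bound chaperones, prefoldin and the TRiC chaperonin, 0 were called in either direction and the median was 0.12. The ribosome-bound Hsp70 genes *SSB1* and *SSB2* had no probe set of their own name and were not tested. In the values as deposited 1 was lower, after quantile normalization 2 were lower, and with 1 array left out up to 1 was higher. In the endoplasmic reticulum 7 of 17 folding and degradation genes rose, led by the ERAD gene *DFM1* (0.95 ± 0.15) and the ubiquitin-conjugating enzyme gene *UBC7* (0.83 ± 0.14), and the count was 3 without untreated replicate 1 or 3, 4 without 15 min replicate 2 and 3 in the values as deposited.

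Many genes for carbohydrate stores and sugar entry rose. For trehalose, a sugar that protects proteins and membranes, 5 of 7 genes rose and 0 fell, median 1.74. *TSL1*, a subunit of the synthase complex, went from 156, 88.3 and 80.5 to 1326, 1221 and 1157 (3.58 ± 0.38), *TPS2* and *TPS1*, the enzymes of its synthesis, rose by 2.48 ± 0.32 and 1.98 ± 0.29, and the trehalase genes *NTH1* and *ATH1*, which break it down, rose as well (1.74 ± 0.27 and 1.07 ± 0.24). For glycogen, 9 of 11 tested genes rose, median 1.93. The glycogen synthase gene *GSY1* went from 154, 35.8 and 26.3 to 1186, 853 and 831 (4.17 ± 0.65), with replicate 1 the highest of its untreated arrays, and *PGM2*, the phosphoglucomutase that feeds the pathway, from 119, 98.1 and 125 to 2308, 1822 and 1422 (16.0-fold). The branching enzyme gene *GLC3* rose by 3.67 ± 0.51 and the phosphorylase gene *GPH1*, which degrades glycogen, by 2.56 ± 0.57, so synthesis and breakdown were both represented.

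Among 9 tested hexokinases and hexose transporters 5 rose and 1 fell. *HXK1*, the hexokinase made when glucose is scarce, went from 206, 166 and 89.3 to 4126, 3447 and 2937 (4.58 ± 0.59), and the glucokinase gene *GLK1* rose by 2.72 ± 0.27. *HXK2*, the hexokinase of growth on glucose, changed by 0.12 ± 0.14 and was not called. The high-affinity transporter genes *HXT6* (3.15 ± 0.46) and *HXT7* (2.58 ± 0.40) rose, but their sequences are nearly the same and the array may not separate them. *HXT1*, a low-affinity transporter, was called lower (-0.90 ± 0.32), a call lost without untreated replicate 2 or 3 or without 15 min replicate 1 or 2. In glycolysis itself 0 of 16 genes were called and the median was 0.10, with 1 lower in the values as deposited and up to 1 higher with 1 array left out. In the pentose phosphate pathway the peripheral forms *SOL4* and *NQM1* (0.83 ± 0.19) were the 2 of 11 genes called. On the psocs arrays compared here *NQM1* lay below the level set for dim genes (log2 6.53), so the size of its rise is uncertain. Of 8 genes of the GABA shunt and of aldehyde dehydrogenases 5 rose, among them the glutamate decarboxylase gene *GAD1* (3.38 ± 0.47) and *ALD4* (2.52 ± 0.40).

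Many listed genes of the broad stress programme rose as well. Of 29 tested genes of varied function listed as Msn2 and Msn4 stress genes, 26 rose and 0 fell, with a median of 3.21. Taken array by array the medians were 3.49, 3.19 and 2.74 over the untreated mean. Promoters were not searched for sites of these factors, and the study states that the promoter of the member *GPG1* lacks a stress response element. *TMA10*, which binds ribosomes, went from 16.1, 17.5 and 8.84 to 562, 376 and 295, *DDR2*, a small stress protein first known from DNA damage, from 389.6, 360.4 and 294 to 5050.5, 4488 and 3366 (3.62 ± 0.51, adjusted p = 9.64e-06), and *SPI1*, a cell wall protein gene, rose by 3.62 ± 0.39. *GPD1*, which makes the osmolyte precursor glycerol 3-phosphate, rose by 2.20 ± 0.25. The 3 members not called were *PBI2* (0.68 ± 0.32) and *GPG1* (0.71 ± 0.40), both called without untreated replicate 2 (1.06 and 1.16), and *YGP1* (0.86 ± 0.39). The gene of the activator itself moved the other way: *MSN2* fell by 0.52 ± 0.13, and *MSN4* changed by 0.49 ± 0.30 without a call.

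Antioxidant genes rose in 19 of 29 cases with 0 lower, at a median of 0.45, and the count was 14 without untreated replicate 1 and 15 in the values as deposited. *CTT1*, the cytosolic catalase, went from 33.8, 21.7 and 21.2 to 376, 190.0 and 206 (3.30 ± 0.55), the mitochondrial peroxiredoxin gene *PRX1* rose by 2.54 ± 0.27, *GPX1*, a peroxidase, by 1.76 ± 0.40, and the glutaredoxin genes *GRX1* and *GRX2* by 1.41 ± 0.25 and 1.41 ± 0.17. *TSA1*, the main cytosolic peroxiredoxin, changed by 0.25 ± 0.12 and was not called. In the respiratory chain and ATP synthase 20 of 40 genes rose, median 0.54, most by less than 2-fold, and 14 rose without untreated replicate 2 and 14 after quantile normalization. The highest were the hypoxic isoform of a cytochrome oxidase subunit, *COX5B* (1.36 ± 0.27), and the succinate dehydrogenase gene *SDH2* (1.33 ± 0.33). In the TCA cycle 5 of 14 were called higher at a median of 0.15, and without untreated replicate 2 the count was 0, without untreated replicate 3 it was 3 and without 15 min replicate 1 it was 1. In autophagy 7 of 14 tested genes rose, 4 without untreated replicate 2. *ATG8*, the ubiquitin-like protein of the autophagosome membrane, went from 314, 164 and 166 to 976, 825 and 701 (2.01 ± 0.25), and *ATG3*, its conjugating enzyme, rose by 1.15 ± 0.20.

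Proteasome genes rose by little but nearly all together. Of the 33 subunit genes 29 rose and 0 fell, with a median of 0.49 against 0.09 for all genes. *PRE8*, a subunit of the core, stood at 1511, 1371 and 1585 without UV and at 2247, 2039.7 and 2146 at 15 min (0.53 ± 0.09, adjusted p = 1.29e-04), so a change of this size was still larger than the spread of the arrays. *RPT3*, an ATPase of the cap, rose by 0.75 ± 0.16 and the lid gene *RPN3* by 0.69 ± 0.14. The count rests on small changes: 18 of the 33 were called without untreated replicate 2, 18 in a fit to the compared groups alone, 21 in the values as deposited and 13 after quantile normalization, where each time 0 were lower. The activator of these genes, *RPN4*, had moved further, from 449, 322 and 362 to 1156, 1007 and 932 (1.46 ± 0.20), and *TMC1*, a proteasome adaptor gene, from 122, 198 and 163 to 709.8, 631 and 667 (2.08 ± 0.26). Of the 14 tested genes for the activator, assembly factors and adaptors 7 rose, 3 without 15 min replicate 1 and 4 without replicate 2, and the assembly chaperone *UMP1* rose by 0.86 ± 0.16. *UBI4*, the polyubiquitin gene of stress, went from 442, 520.3 and 354 to 1769.5, 1599 and 1182 (1.79 ± 0.23). In the list of ubiquitin enzymes and Cdc48 partners 11 of 20 rose and 2 fell, and 7, 6 and 7 rose without untreated replicate 1, 15 min replicate 1 and 15 min replicate 3. The shuttle gene *DDI1* rose by 0.96 ± 0.15 and the Cdc48 partner *SHP1* by 0.72 ± 0.12. The genes of the ligase that the SOCS box belongs to were not called: *ELC1*, the elongin, changed by 0.32 ± 0.13 and *CUL3*, the cullin, by -0.26 ± 0.18.

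**Figure D2:**
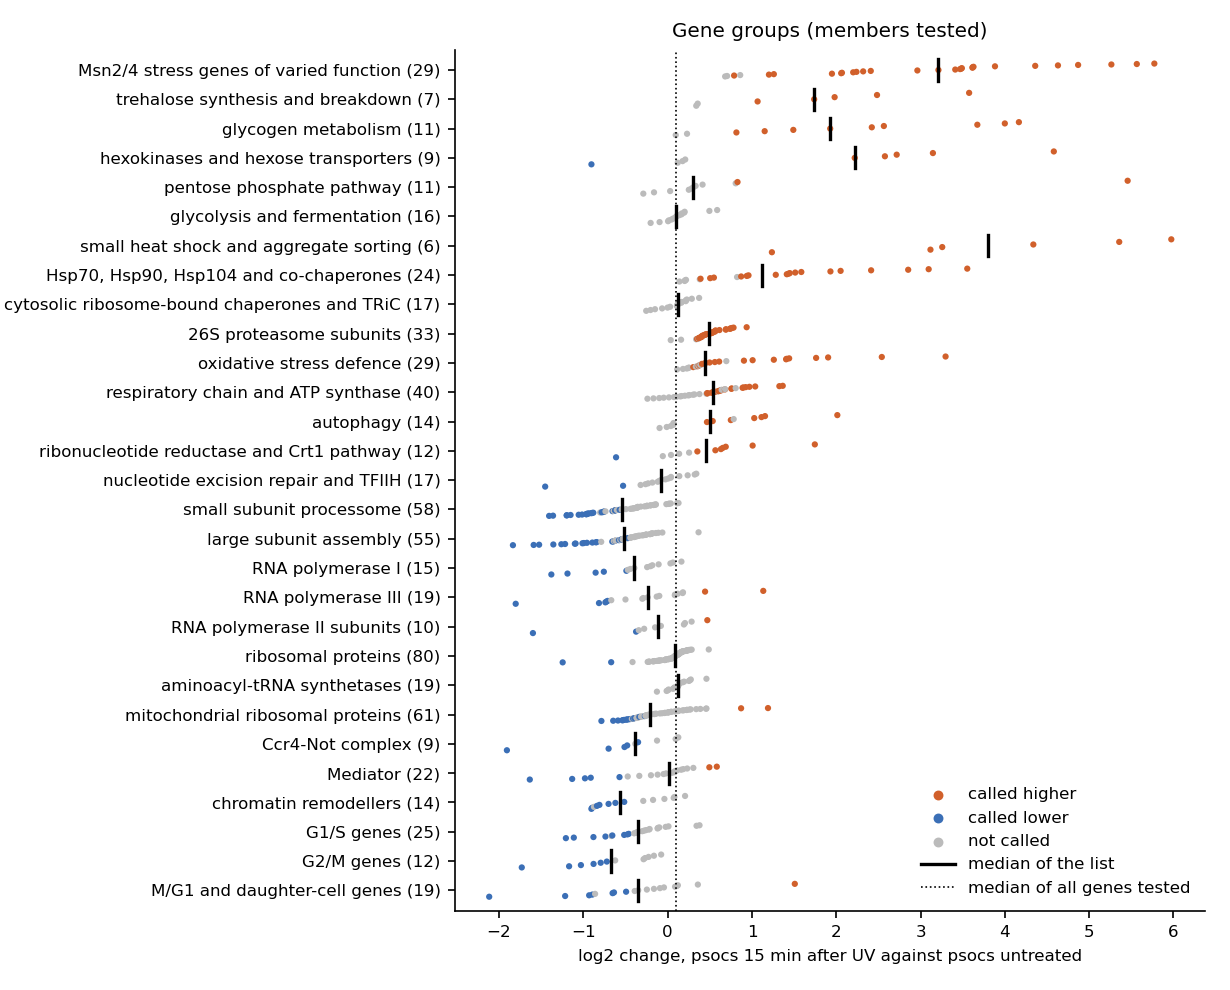
Log2 change of every tested member (1 point per gene) in 29 gene lists for psocs at 15 min over untreated, with a bar at the median of each list and a dotted line at the median of all genes, 0.09. Colours mark called members, and the medians run from 3.80 for small heat shock and aggregate sorting genes through 0.09 for ribosomal proteins to -0.67 for G2/M genes.

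Signalling genes were mixed. *CIN5*, a transcription factor of the Yap family, rose 7.28-fold, from 252, 183 and 256 to 1635, 1571 and 1775 (2.86 ± 0.38, adjusted p = 5.02e-06), and *PHD1*, a regulator of filamentous growth, went from 449.7, 511 and 602 to 1695, 1293 and 1413 (1.49 ± 0.25). In both genes the arrays of a group lay close together and the groups far apart. Other factors fell, among them the stress regulator *SKN7* (-1.39 ± 0.27), the glucose repressor *MIG2* (-1.19 ± 0.24), *YAP7* (-0.97 ± 0.18) and *RLM1* of the cell wall pathway (-0.69 ± 0.13), so that of 28 tested factors 4 rose and 5 fell. In the Ras and protein kinase A pathway 5 of 17 genes rose and 0 fell. *TPK2*, a catalytic subunit of the kinase, went from 287, 204 and 199.5 to 846, 659.6 and 634 (1.64 ± 0.21). *YAK1*, a kinase that opposes this pathway, rose by 1.06 ± 0.22, and *IGO1*, which protects mRNAs on entry into quiescence, by 0.97 ± 0.13. Among 15 MAP kinase genes the largest change was in *SDP1*, the phosphatase that turns off the kinase Slt2, from 43.0, 29.7 and 15.7 to 637, 444 and 384 (4.13 ± 0.38, adjusted p = 4.65e-08). *HOG1*, the osmotic stress kinase, rose by 0.79 ± 0.13, and *SLT2* changed by 0.14 ± 0.20 without a call.

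Genes of the ribonucleotide reductase and Crt1 pathway had changed unevenly by 15 min, and the source of their changes was not tested. *RNR3*, the damage-induced large subunit of ribonucleotide reductase, read 79.0, 84.0 and 75.9 without UV and 108, 83.8 and 74.1 at 15 min, with overlapping arrays and a change of 0.14 ± 0.22. *RNR1*, the main large subunit, fell from 1207, 1163 and 1005 to 784, 867 and 582 (-0.61 ± 0.15, adjusted p = 0.00299). The small subunit genes differed little from untreated, *RNR2* by 0.25 ± 0.16 without a call and *RNR4* by 0.35 ± 0.10, the latter called but not without untreated replicate 1 or in a fit to the compared groups alone. Other genes of the pathway had already separated from the untreated arrays. The kinase gene *DUN1* went from 94.0, 75.3 and 82.7 to 132, 138 and 119.8 (0.63 ± 0.15), *RFX1*, which codes for the repressor Crt1, rose by 0.69 ± 0.16, and *YLR345W* rose by 1.75 ± 0.28. *HUG1*, an inhibitor of ribonucleotide reductase, went from 57.8, 79.0 and 86.3 to 122, 126 and 99.7 (0.65 ± 0.23, adjusted p = 0.0302), and this call was lost without untreated replicate 1, 15 min replicate 1 or 15 min replicate 2 and in the values as deposited. *SML1*, the other inhibitor, changed by 0.04 ± 0.11. In the list 7 of 12 rose and 1 fell.

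Of the repair genes listed, *MAG1*, a DNA glycosylase for alkylated bases, had the largest rise, from 29.3, 25.8 and 24.8 to 62.1, 65.0 and 72.3 (1.32 ± 0.20). On the psocs arrays compared here *MAG1* lay below the level set for dim genes (log2 6.53), so the size of its rise is uncertain. *RFA2*, a subunit of the single-strand binding protein RPA, rose by 0.60 ± 0.17 and *MMS2*, which makes chains of ubiquitin on the sliding clamp, by 0.50 ± 0.13. In this list 5 of 19 rose, 3 without 15 min replicate 1, and 3 fell, 1 without untreated replicate 1 or 15 min replicate 3 and in a fit to the compared groups alone, and 13 further genes were too dim to test. Nucleotide excision repair genes were not higher: 0 of 17 rose and 2 fell, *MET18* (-1.45 ± 0.33), which also acts in iron-sulphur protein assembly, and the TFIIH gene *TFB1* (-0.53 ± 0.17), whose call was lost without untreated replicate 1 or 15 min replicate 1 and in a fit to the compared groups alone. *RAD23*, the partner of Rad4, changed by 0.04 ± 0.17. Most checkpoint genes were dim on these arrays. Of the 4 tested, *DPB11* fell (-0.66 ± 0.16), and *CHK1* was called higher (0.57 ± 0.19) but not without untreated replicate 1 or 2 or 15 min replicate 2 or 3, nor in the values as deposited or a fit to the compared groups alone. *ACT1*, the actin gene often used as a reference, changed by 0.02 ± 0.13.

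Many ribosome building genes fell, while few ribosomal protein genes were called. In the small subunit processome, which cuts and folds the precursor of the small subunit RNA, 23 of 58 genes fell and 0 rose, with a median of -0.54. Taken array by array the medians were -0.81, -0.29 and -0.43 over the untreated mean, so replicate 1 showed the deepest shift, and without it 13 genes were called lower. *UTP25* fell by 1.41 ± 0.28, *RRP9*, a protein of the U3 particle, by 1.36 ± 0.20 and *UTP20* by 1.15 ± 0.26. Among 55 large subunit assembly genes 20 fell and 0 rose, at a median of -0.52, with 11 lower without 15 min replicate 1 and 13 without untreated replicate 3. *SPB1*, a methyltransferase of the large subunit RNA, went from 377, 418 and 461 to 77.6, 167 and 124 (-1.84 ± 0.28), and the GTPase gene *NOG1* fell by 1.59 ± 0.29. Of the 15 RNA helicases of assembly 5 fell, 3 without untreated replicate 2 or 3 or 15 min replicate 1. *DBP7* went from 301, 464 and 469 to 55.7, 124 and 118 (-2.11 ± 0.29), and its UV arrays did not reach the lowest untreated one.

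Of the 80 ribosomal protein genes with a probe set of their own name, 0 rose (5 without untreated replicate 3) and 2 fell, and their median of 0.09 was that of all genes. The others of the 137 listed were not tested here, for many of these genes are near copies of a second gene. The 2 that fell belong to duplicated pairs. *RPL22B* went from 1266, 1393 and 1527 to 587, 594 and 579.5 (-1.25 ± 0.12, adjusted p = 5.72e-08), while its partner *RPL22A* changed by 0.15 ± 0.12. *RPS9A* fell by 0.67 ± 0.12 and *RPS9B* changed by 0.07 ± 0.13. Probe sets of paralogs can share signal, so these pairs are uncertain to that degree. The 19 aminoacyl-tRNA synthetases had 0 called, 2 higher without untreated replicate 3, and a median of 0.12. The regulators of these genes had fallen: 6 of 12 were lower and 0 higher, at a median of -0.76. *IFH1*, the coactivator of ribosomal protein genes, went from 248, 375 and 321 to 39.8, 68.6 and 89.8 (-2.31 ± 0.49), and *SFP1*, *SCH9*, *TOR1* and *RAP1*, which tie ribosome synthesis to nutrients or bind its promoters, fell by 0.82 ± 0.13, 0.84 ± 0.18, 1.09 ± 0.22 and 0.69 ± 0.15. Mitochondrial ribosomal proteins were lower in 14 of 61 cases and higher in 2, by small amounts and at a median of -0.21. Lower members numbered 7, 8, 7 and 7 without untreated replicate 1, untreated replicate 2, 15 min replicate 2 and 15 min replicate 3. They numbered 21 in the values as deposited, 18 after quantile normalization and 5 in a fit to the compared groups alone. The count thus varied widely with the fit and the scaling, and it is no firm result about the list. The member with the clearest fall was *MRP13* (-0.79 ± 0.13).

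Falls among RNA polymerase genes were selective. *RPO21*, the largest subunit of RNA polymerase II, went from 2264, 1847 and 2617 to 714, 760.0 and 727 (-1.60 ± 0.15, adjusted p = 4.98e-08), whereas *RPB2*, the second largest, changed by -0.15 ± 0.14 and was not called. *RPO31*, the largest subunit of polymerase III, went from 416, 548 and 687 to 154, 135 and 179 (-1.80 ± 0.26). *RPA190*, its counterpart in polymerase I, did not follow, at 2381, 2543 and 3136 and 2153, 3111 and 3036 (0.03 ± 0.24), with overlapping arrays. In polymerase I the initiation factor gene *RRN6* (-1.38 ± 0.20) and the subunit gene *RPA12* (-1.19 ± 0.22) fell, as 2 of 5 lower genes among 15.

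In transcription complexes some subunits fell and others were not called. *CDC39*, which codes for the scaffold of Ccr4-Not, the complex that removes poly(A) tails, went from 281, 222 and 266 to 51.9, 85.5 and 71.2 (-1.91 ± 0.17, adjusted p = 4.45e-08). The deadenylase genes *CCR4* and *POP2* fell by 0.70 ± 0.19 and 0.48 ± 0.11, and 5 of the 9 genes were lower, 3 without 15 min replicate 3. *TRA1*, the activator-binding subunit shared by SAGA and NuA4, went from 861, 704 and 821 to 132, 237 and 269 (-1.96 ± 0.24), 3.89-fold lower, while 6 of the 21 genes of those complexes fell and 3 rose, the latter 1 without untreated replicate 1, 15 min replicate 1 or 15 min replicate 3, under both other scalings and in a fit to the compared groups alone. *TAF9* (0.49 ± 0.12), a subunit shared with TFIID, was among those that rose. In Mediator 5 of 22 fell and 2 rose. The kinase gene *SSN3* (-1.64 ± 0.22) and *SRB8* (-0.91 ± 0.19), both of its kinase module, and the tail gene *GAL11* (-0.98 ± 0.15) were among the lower ones. Of 14 chromatin remodellers 7 fell and 0 rose, median -0.57, including the RSC ATPase *STH1* (-0.81 ± 0.16), *ISW2* (-0.84 ± 0.14) and *CHD1* (-0.62 ± 0.13). Of 28 translation initiation factors 5 fell, 3 without 15 min replicate 1 and 8 in the values as deposited. The helicase gene *DED1* went from 1013, 1261 and 1353 to 255, 413 and 496 (-1.68 ± 0.22), and the eIF3 gene *NIP1* fell by 1.04 ± 0.23. In the nuclear pore 7 of 31 fell, 4 without untreated replicate 1 or 3 or 15 min replicate 1, 10 in the values as deposited and 12 after quantile normalization, with *NUP100* (-0.84 ± 0.17) among them.

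Cell cycle genes fell in each of the lists tested. In G2/M 6 of 12 fell and 0 rose, at a median of -0.67. The mitotic cyclin gene *CLB1* went from 443, 497 and 514 to 143, 189.8 and 115 (-1.73 ± 0.21), and the polo kinase gene *CDC5* fell by 1.17 ± 0.19. In G1/S 8 of 25 fell and 0 rose, among them the cyclin gene *CLN1* (-0.88 ± 0.23), the clamp unloader gene *ELG1* (-1.21 ± 0.16) and *NRM1* (-1.11 ± 0.19), a corepressor of this stage. Of 19 genes of M/G1 and of daughter cells 7 fell and 1 rose. The cell wall gene *SCW11* went from 605, 868 and 596 to 172, 210.1 and 107 (-2.12 ± 0.27), the mitotic exit antagonist *AMN1* fell by 1.22 ± 0.16, and the member that rose was the cell wall gene *PIR3* (1.51 ± 0.39). Of the 4 histone genes tested the H2B pair fell, *HTB1* from 3469.8, 3740.0 and 3574 to 1559, 1549 and 1605 (-1.19 ± 0.13) and *HTB2* by 0.99 ± 0.19, and these 2 are close copies.

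Metabolism outside the carbon stores changed in few genes. Of 40 amino acid genes under Gcn4 4 fell and 1 was called higher, with a median of 0.01. *ILV5*, an enzyme of branched-chain amino acids, went from 5667, 5092 and 6458 to 2047, 2379.5 and 2724 (-1.27 ± 0.19), and the glutamine synthetase gene *GLN1* fell by 1.05 ± 0.22. In arginine synthesis 0 of 7 genes were called and in purine synthesis 1 of 19. In the values as deposited 1 arginine gene was lower. In sterol synthesis the scaffold *ERG28* rose (1.13 ± 0.16) and the squalene epoxidase gene *ERG1* fell (-0.74 ± 0.16). Apart from *AQR1*, the exporter gene with the clearest change was *PDR12*, a pump for weak acids, which fell by 1.37 ± 0.23. Genes known by a systematic name alone were often higher: 110 of 293 rose and 25 fell, and *YNR014W* had the largest change of the tested ones (4.09 ± 0.39).

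Short and long genes differed. The 4159 genes with a RefSeq length were divided by coding length into 5 classes of equal size. The median change fell from 0.28 in the shortest class (78 to 669 bp) through 0.15, 0.11 and 0.03 to -0.14 in the longest (2118 to 14733 bp). The share called higher went from 34.3% to 5.65% and the share called lower from 6.25% to 21.2%. The lists above were read against all tested genes and not against genes of like length, for which the shares differ as given here. The longest class minus the shortest was -0.42, and taken array by array -0.51, -0.39 and -0.40, whereas the same measure in the untreated arrays, against their own mean, was 0.06, -0.06 and 0.001. Among 3039 genes outside every list above the difference was -0.43. Of 34 genes of at least 6000 bp 10 fell and 0 rose. They include *TRA1* and *CDC39*, the kinase gene *TOR1*, the splicing factor gene *PRP8* (-0.69 ± 0.17) and *SEC16* (-0.98 ± 0.16), which organises exit sites of the endoplasmic reticulum. The other 24 did not pass. In pRAD7 the same difference was -0.44, and Spearman's rho between length and change was -0.34 in both strains, across genes that are not independent. The 3′ to 5′ ratios of *ACT1* and *SRB4* given above moved with UV in the same arrays, and their part in the length pattern was not tested.

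**Figure D3:**
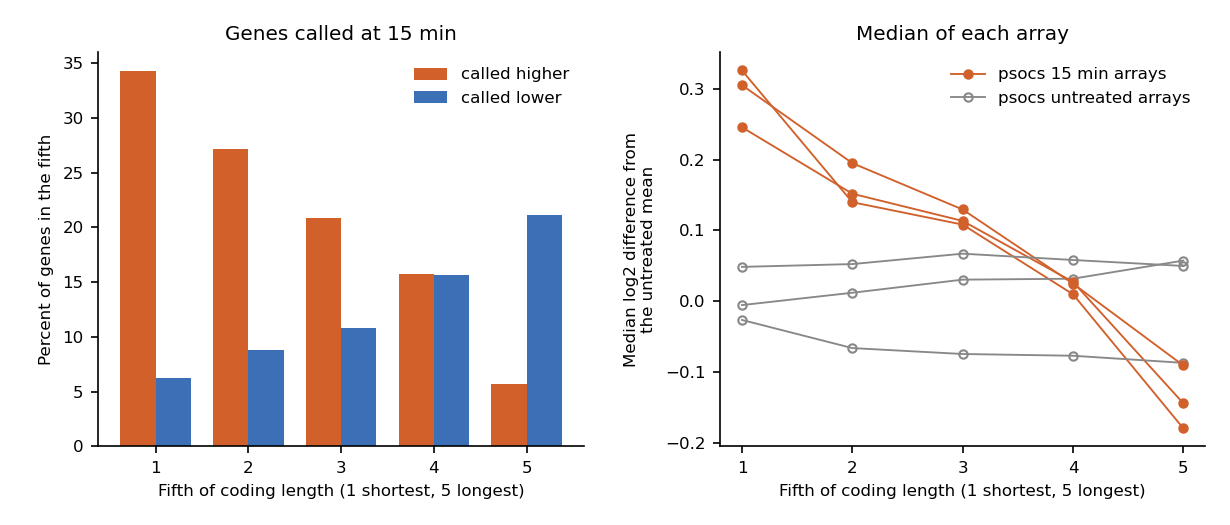
Percent of genes called higher and lower at 15 min in 5 classes of coding length from shortest to longest (left, bars), and the median log2 difference of each psocs array from the untreated mean (right, filled for the 3 irradiated and open for the 3 untreated arrays). The share called higher descends from 34.3% to 5.65%, and the 3 irradiated arrays descend while the untreated ones stay nearly flat.

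The mutant was then set against pRAD7, to ask whether the SOCS box altered the early response. No difference between the responses was called: 0 of 4242 genes (0.0%) passed the interaction test in limma, and 37 had an unadjusted p under 0.05. That is fewer than this threshold would pass with no differences at all, so the SEs of the difference may be too large. They come from a fit that leaves out the pairing of the strains by replicate number described below. The 95% interval of the difference had a median half-width of 0.51 and lay inside 1 log2 unit either way for 3620 genes, so smaller differences were not detectable with 3 arrays a group. Across the 4242 genes, which are not independent, the changes of the strains correlated at r = 0.958 with a slope of 0.93, and the SD of the difference was 0.21. The strains share no array in this comparison. *HSP30* rose by 5.97 ± 0.64 in psocs and by 5.09 ± 0.64 in pRAD7, *HMT1* changed by -2.31 ± 0.32 and -2.92 ± 0.32 and *CDC39* by -1.91 ± 0.17 and -2.28 ± 0.17, and none of these pairs differed beyond the adjusted threshold.

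Among the damage genes *RNR3* had unlike values in the strains, but the difference did not pass. It changed by 0.14 ± 0.22 in psocs and by 0.88 ± 0.22 in pRAD7, where it was called, a difference of -0.74 ± 0.31 with a 95% interval from -1.38 to -0.10 (unadjusted p = 0.0248, adjusted p = 0.9998). In pRAD7 the signals were 78.8, 88.3 and 43.2 without UV and 119.8, 123 and 127 at 15 min. The pRAD7 groups do not overlap, while in psocs the groups do. In both strains every untreated array lay below the level set for dim genes (log2 6.53), and the third untreated pRAD7 array (43.2) lay well below the others. The size of the *RNR3* changes at 15 min is therefore uncertain. The other genes of the pathway had like values in both strains, with *DUN1* at 0.63 ± 0.15 and 0.65 ± 0.15, *HUG1* at 0.65 ± 0.23 and 0.62 ± 0.23 and *RFX1* at 0.69 ± 0.16 and 0.73 ± 0.16. The smallest unadjusted p of the interaction belonged to *LSM1*, a decapping activator (0.17 ± 0.11 in psocs and 0.64 ± 0.11 in pRAD7, unadjusted p = 0.00607, adjusted p = 0.9998). *PRP6*, a splicing factor gene, had changes of opposite sign (-0.33 ± 0.13 in psocs and 0.14 ± 0.13 in pRAD7), and their difference was not called. In the levels at 15 min themselves 1 gene was called between the strains (0.0236%), and that gene was *RAD7*, lower in psocs on every array (adjusted p = 9.93e-10). Its psocs signals lie in the range of the dim genes left out by the filter and were not shown to be above background, so no fold is given. In all, 78 had an unadjusted p under 0.05 in that comparison, again fewer than this threshold would pass with no differences.

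**Figure D4:**
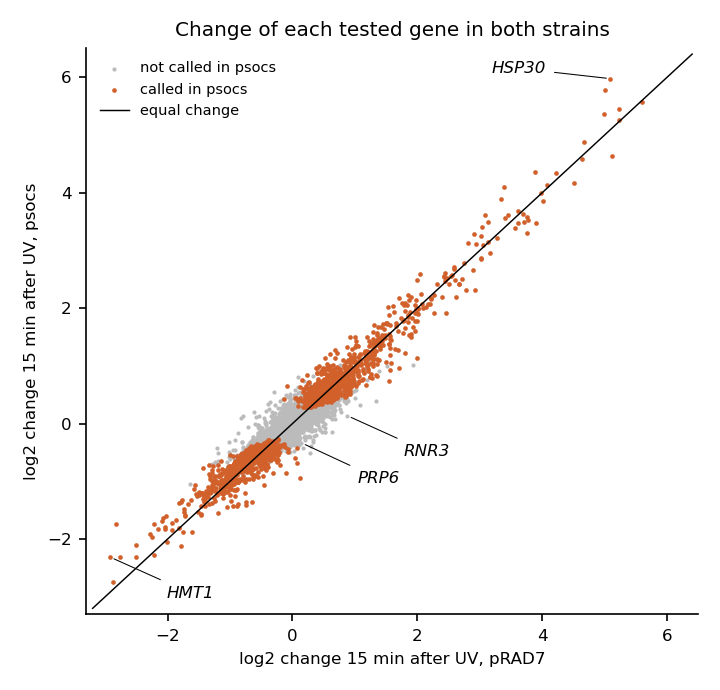
Log2 change at 15 min over untreated in pRAD7 (x axis) and psocs (y axis), 1 point per tested gene, with the line of equal change and *RNR3*, *PRP6*, *HSP30* and *HMT1* named. The points follow the line closely (r = 0.958), with *HSP30* at the upper end.

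At 60 min the same strain had moved on, and the sequence of changes can be read from the values. Both times have the same untreated arrays, so only the direct contrast between 60 and 15 min is tested. limma called 941 genes higher (22.2%) and 1361 lower (32.1%) at 60 min than at 15 min. Centring sets this balance: 40.9% of called genes were higher after centring, 64.5% in the values as deposited, where the median of all genes was 0.20 higher at 60 min in place of -0.09, and 50.5% after quantile normalization. Replicate 1 of the 60 min arrays stood apart in 3′ to 5′ ratios (0.77 for *ACT1* and 9.67 for *SPT15*) and counts without it are given beside those with it.

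Some genes of the early response had already receded. *CIN5* was at 1635, 1571 and 1775 at 15 min and at 646, 612 and 478 at 60 min, a change of -1.53 ± 0.38 (adjusted p = 0.00164; -1.62 without replicate 1). *PHD1* returned to 337, 518 and 405, the range of its untreated arrays or below (-1.82 ± 0.25, adjusted p = 2.20e-06). *CUR1* was at 200.2, 359.7 and 449 (-1.48 ± 0.32; -1.15 without replicate 1), and *BTN2* at 1241, 1546 and 1142 (-0.68 ± 0.23), a call lost without 15 min replicate 1 (-0.58) or 60 min replicate 3 (-0.59) and under both other scalings. *HSP42* stayed up, with a change of -0.30 ± 0.27 that was not called. Of the early falls, *RPO21* came back to 1579, 1433 and 1510.2 (1.04 ± 0.15, adjusted p = 3.87e-06), *CDC39* to 169.6, 189.9 and 162 (1.35 ± 0.17, adjusted p = 1.04e-06) and *GIS3* to 260.4, 249 and 197 (1.51 ± 0.24), in each case still below the lowest untreated array. *HMT1* was not called between the times (-0.42 ± 0.32).

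Other genes made most of their change after 15 min, some of them having been called by then. *HUG1* reached 1299.8, 2068 and 1449 at 60 min (3.77 ± 0.23 over 15 min), *RNR3* 888, 955 and 966 (3.42 ± 0.22) and *MAG1* 313, 325 and 331 (2.28 ± 0.20). The pentose phosphate isoforms *NQM1* and *TKL2*, at 55.7, 58.6 and 54.4 and at 92.0, 98.7 and 40.9 at 15 min, reached 834, 644 and 623 and 1571, 785 and 909.7. Ribosomal protein genes were lower at 60 than at 15 min in 79 of 80 cases, 79 without replicate 1 and 78 in the values as deposited. The same held for 19, 19 and 19 of the 19 tRNA synthetases. In the small subunit processome 54 of 58 were lower, 52 without replicate 1 and 51 as deposited, and in large subunit assembly 53 of 55, 52 and 52. *RPA190*, which had not moved at 15 min, was at 246, 586 and 435 (-2.78 ± 0.24), and the helicase gene *DBP2*, at 2646, 4558 and 4049 at 15 min, was at 204, 312 and 237 (-3.89 ± 0.24). Proteasome subunits went further up in 26 of 33 cases, 26 without replicate 1 and 29 as deposited. Mitochondrial ribosomal proteins moved the other way, with 30 of 61 higher than at 15 min, 26 without replicate 1 and 44 as deposited, and 0 lower each time.

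**Figure D5:**
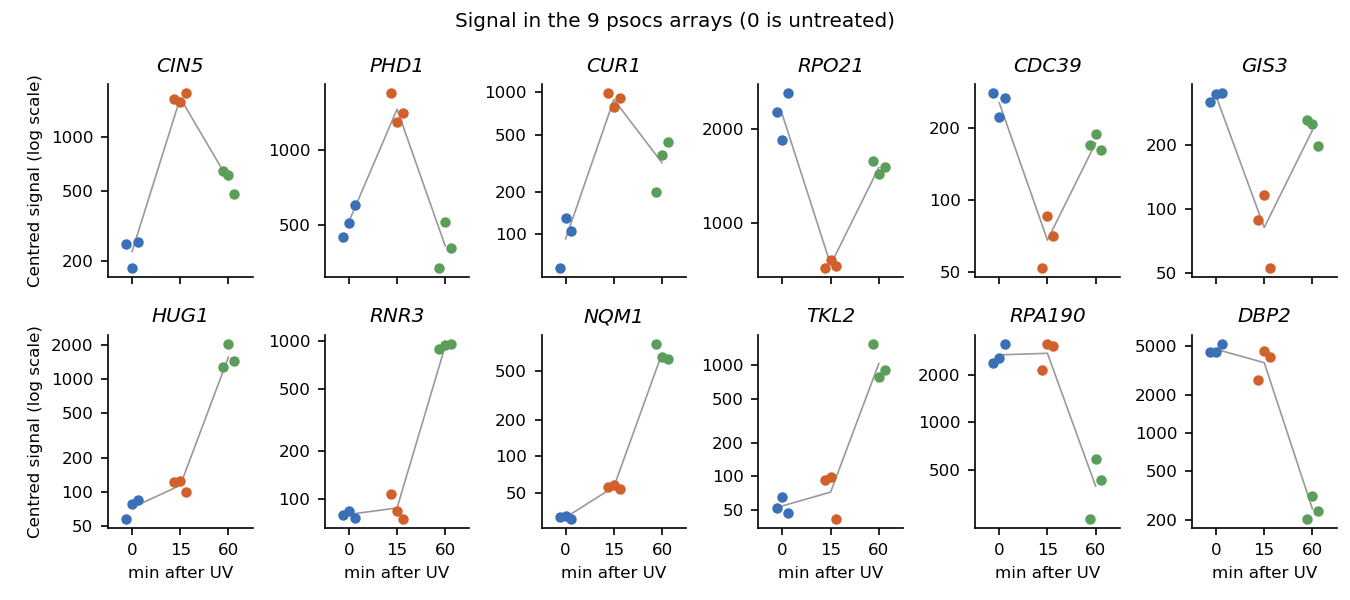
Centred signal (log axis) of 12 genes in psocs cells, untreated and at 15 and 60 min (times drawn as categories, not to scale), with 1 point per array and a line through the geometric means. *CIN5*, *PHD1* and *CUR1* peak at 15 min, *RPO21*, *CDC39* and *GIS3* are lowest there, and *HUG1*, *RNR3*, *NQM1* and *TKL2* rise and *RPA190* and *DBP2* drop after it.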

How the data were processed

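RNA of 1 sample per array was measured on 30 Affymetrix Yeast S98 arrays in 12 groups. MAS 5.0 signals were deposited as linear intensities, which the authors had scaled to a trimmed mean that came to 500.3 to 500.5 on each array, and per the labels they were summarised in Expression Console, whose version is not given in the sources used here. Of 9335 probe sets, 60 of them controls, 6504 carried a single gene name in the annotation, 328 carried several and 2443 carried none. Genes with several probe sets kept the one with the highest mean, and 207 tested genes rest on probe sets marked as shared or incomplete. Of the called genes 55 had another bright probe set, and in 4 (*ERG12*, *PPT1*, *RPT5* and *SNF7*) it had the opposite sign.

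Signals under the 10th percentile (8.50) were raised to it and log2 was taken. Array medians ran from 6.81 to 7.28, so arrays were centred on the median of medians (shifts from -0.33 to 0.13). Dim genes, whose mean lay below the 25th percentile (log2 6.53), were not tested. Group means of all 30 arrays were fitted in R 4.3.3 by limma 3.58.1, with trended eBayes variances, with Benjamini-Hochberg adjustment over 4242 genes per contrast. Arrays give no count depth, their number limits the precision, and the median SE was 0.18 for the psocs change and 0.25 for a difference between strains. No detection calls were used. The fit was tested on simulated data.

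Replicate numbers were checked for pairing before the calls were compared. Same-numbered psocs and pRAD7 arrays deviated together (correlations of 0.60, 0.50 and 0.28 at 15 min and 0.19, 0.50 and 0.15 without UV), so the number was taken as a pairing between strains, from the data and the labels' numbers, and with it as a block 0 and 1 genes were called for the difference of responses and of levels, as without it. The SEs, p-values and intervals printed for differences between the strains come from the fit without this block. The members and lists were chosen with earlier results of these data known. Named are genes discussed in the study, the largest called changes (at most 15 in each direction), up to 4 members per list and direction, members not called where a list is mixed, and the leading genes of the contrasts between strains and between times. Some further members were named after their values were seen. Coding length is the gene length of the RefSeq table, a multiple of 3 in 96.3% of cases, in place of the protein length planned. The search of promoters for motifs was not run, as sequences were not used here. Alternatives were other filters, no floor, no centring, quantile normalization, a fit to the compared groups, replicate blocks and each array left out. Python 3.11.15 with matplotlib 3.10.9 drew the figures.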

Additional observations from a re-analysis of the deposited data

Results flagged for a closer look

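*PRP6*, a gene of the tri-snRNP of the spliceosome, had opposite changes in the strains at 15 min, and every irradiated array of each strain lay on its own side of the untreated arrays. Such separation was common, since in psocs the arrays of the groups did not overlap in 45.0% of tested genes. In psocs the signals were 222, 238 and 232 without UV and 174, 208 and 169.8 after it (-0.33 ± 0.13), and in pRAD7 they were 209, 192 and 189 and 222, 213 and 216 (0.14 ± 0.13). The psocs change was not called after centring, and was called in the values as deposited (-0.43), after quantile normalization (-0.36), with a block within strain (-0.33) and without 15 min replicate 2 (-0.43). The difference between the responses was -0.48 ± 0.19, with a 95% interval from -0.87 to -0.08 (unadjusted p = 0.0194, adjusted p = 0.9998 in limma), so it did not pass over all 4242 genes. The values of no other named gene met this criterion, and the groups of 3 arrays were too small for a test of single arrays that stand apart.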

How the results depend on the processing

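At 15 min in psocs, 954 genes (261 lower) were called under a stricter filter at the 50th percentile, where fewer genes are tested, and 395 (265 higher, 130 lower) where a change of at least 2-fold was also asked. Leaving out 1 array gave 1042 to 1280 called genes. Between 60 and 15 min, 845 genes (233 higher, 612 lower) passed with at least 2-fold, 560 were higher under the stricter filter, and 1622 were higher and 894 lower in the values as deposited, while leaving out 1 array gave 2038 to 2223. Between the strains at 15 min 0 genes were called under the stricter filter, which removes *RAD7*, and the difference of responses had 0 calls under every alternative run. The difference between the longest and shortest genes stayed between -0.37 and -0.43.

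Values near 0 that were not called changed sign. In the values as deposited and after quantile normalization *ACT1* was at -0.071 and -0.11, *RAD23* at -0.053 and -0.13, *RPA190* at -0.060 and -0.062, *RPS9B* at -0.022 and -0.015 and *SML1* at -0.053 and -0.020, and *HSP42* between 60 and 15 min was at 0.24 after quantile normalization. With 1 array left out the change at 15 min ranged from -0.063 to 0.077 for *ACT1*, from -0.15 to 0.25 for *RAD23*, from -0.014 to 0.26 for *RNR3*, from -0.061 to 0.20 for *RPA190*, from -0.042 to 0.20 for *RPS9B* and from -0.0022 to 0.12 for *SML1*. The cause of these changes was not tested.

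Psocs arrays of one number deviated together weakly before and after UV (correlations of 0.13, 0.09 and 0.32), so their numbers were not taken as pairs. With the replicate number as a block 1472 genes were called, with a block within strain 1469, and 5 of the 6 arrays correlated best with their own number, a hint from the data and not from the design. Of the named genes the block added *PBI2*, and the block within strain *PBI2*, *YGP1* and *PRP6*. With 3 arrays a group, changes within the intervals given were not detectable, and signals near the floor leave the size of the highest rises uncertain.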
